A study of Mus musculus with 12 samples.

Results

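A set of 10 HOX genes of the mouse HOXA and HOXB clusters, Hoxa3, Hoxa5, Hoxa6, Hoxa7, Hoxa9, Hoxa10, Hoxb2, Hoxb3, Hoxb4 and Hoxb5, was followed in leukaemic blood progenitors. The genes were taken by name, 10 of the 46103 in the files, and none of them was listed in numbered copies. The cells came from C57BL/6 mice with a chronic myeloid leukaemia (CML)-like disease. Marrow of 5-fluorouracil-treated donors carrying the G0 marker G0M (an mVenus-p27K- fusion reporter at Rosa26, switched on by Vav1-Cre in blood cells) was given BCR-ABL1, the CML fusion kinase, with GFP by a retrovirus, and was transplanted with helper marrow into lethally irradiated C57BL/6 recipients. All cells sequenced were BCR-ABL1+, lineage-negative, Sca1+, c-Kit+ and CD27+ and came from bone marrow and spleen. They were split by the reporter into G0M+ cells (DP) and G0M- cells (SP). Vehicle-treated mice gave DP and SP, and mice given imatinib, an inhibitor of the kinase, by mouth once a day at 40 mg/kg from day 10 gave IMDP and IMSP. Each of the 4 groups had 3 libraries of 100 sorted cells. How many mice stood behind a library is not given in the sources used here, so p-values measure the spread between these libraries, which may be technical.

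HOX genes encode homeodomain transcription factors that lie in clusters, with paralogues of the same number at the same place in each. In blood formation HOXA and HOXB genes are active in stem and early progenitor cells and are turned down as the cells mature. HOXA9 with its partner MEIS1 drives self-renewal in many acute leukaemias, and HOXB4 is known for expanding blood stem cells when it is forced on.

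Levels are given as RPKM, the reads per kb of gene model, scaled to the mapped reads of the library. Whole reads could be recovered from these values. Totals lay between 11.4 M and 20.6 M reads per library, so that 1 read on a gene model of 1 kb was worth 0.0486 to 0.088 RPKM. The sort markers Ly6a (Sca1), Kit and Cd27 were above 0 in every group and summed to between 33.4 and 78.9 RPKM per library.

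HOX transcripts in these cells came almost entirely from the HOXA and HOXB clusters. Of the reads on the 39 HOX genes over the 12 libraries, 75.9% (3160 reads) lay in HOXA, 23% (959 reads) in HOXB and 1.01% (42 reads) in HOXC. All 9 HOXD genes were listed at 0 in every library. The 10 genes described here held 93.6% of all HOX reads (3896 reads). Of the 29 other HOX genes, 15 were at 0 throughout and none reached 1 RPKM in any library. The highest of these by mean were Hoxa4 at 0.328 ± 0.220 RPKM, Hoxa2 at 0.212 ± 0.242 RPKM and Hoxb6 at 0.0994 ± 0.138 RPKM (SD, n = 12). Along the HOXA cluster the level peaked at Hoxa9 and dropped to 0.00207 RPKM at Hoxa11, and along HOXB it peaked at Hoxb4.

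**Figure D1:**
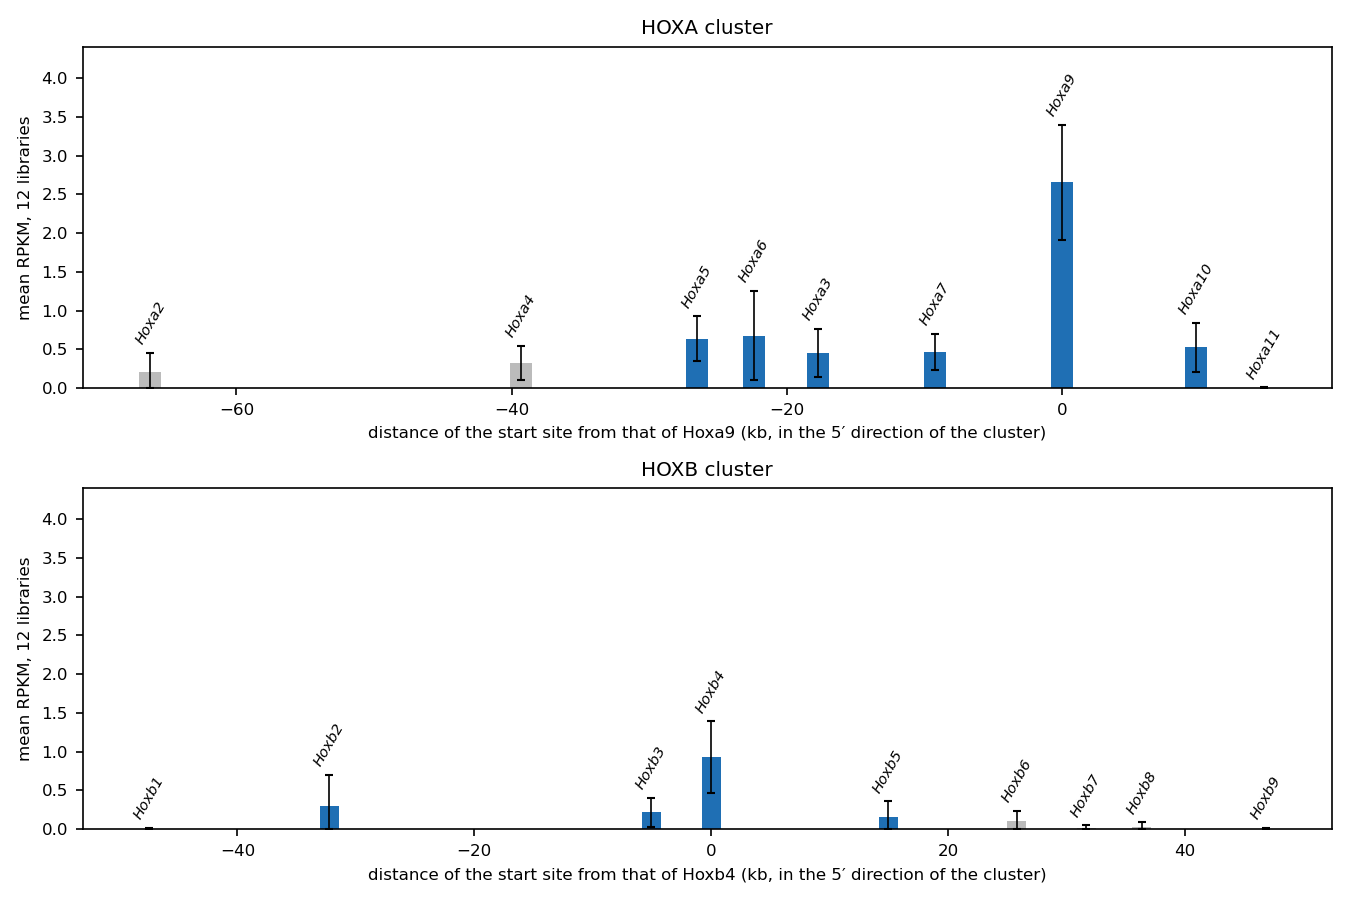
Mean RPKM over 12 libraries (bars, with the SD as error bars cut at 0) of HOXA and HOXB genes detected in any library, placed by the distance of their start sites in kb from that of Hoxa9 or Hoxb4. Blue bars are the 10 genes described and grey bars others of the clusters. Hoxa9 stands at 2.65 RPKM and Hoxb4 at 0.926 RPKM, and Hoxa11, next to Hoxa10, is at 0.00207 RPKM.

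Hoxa9 was the highest of the 10 genes in 12 of 12 libraries. Its mean was 2.65 ± 0.737 RPKM (SD, n = 12), above that of 58.1% of the 16776 genes detected in any library, and it rested on 1571 reads. Hoxb4 came next at 0.926 ± 0.463 RPKM, and in log2 Hoxa9 exceeded it by 1.51 ± 0.51 (SD over libraries). Below Hoxa9 no gene was separated from the next by the spread. Hoxb4 exceeded Hoxa6 by 0.63 ± 0.98 in log2, and in 9 of 12 libraries. Hoxa6 (0.676 ± 0.577 RPKM), Hoxa5 (0.635 ± 0.291), Hoxa10 (0.525 ± 0.320), Hoxa7 (0.467 ± 0.233) and Hoxa3 (0.451 ± 0.315) each differed from the next by less than 1 SD of the library-wise difference, and Hoxa6 exceeded Hoxa5 in 6 of 12 libraries. Hoxb2 (0.303 ± 0.399 RPKM), Hoxb3 (0.216 ± 0.190) and Hoxb5 (0.153 ± 0.206) were the lowest, and Hoxb2 and Hoxb5 were above 0 in 9 of 12 libraries each.

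The Hoxa genes lie on the minus strand of chromosome 6 (GRCm38), from Hoxa3 at chr6:52169062-52213336 to Hoxa10 at chr6:52231197-52240854, and the Hoxb genes on the plus strand of chromosome 11, from Hoxb5 at chr11:96303336-96306121 to Hoxb2 at chr11:96350525-96354012. In GENCODE M21 the exons of Hoxa3 share 297 bases and those of Hoxa7 share 586 bases with the antisense transcript Hoxaas3, and the exons of Hoxb3 share 2250 bases and those of Hoxb2 share 953 bases with the antisense Hoxb3os, which was not analysed here. The library kit does not mark strand, so reads from these genes and their antisense partners cannot be told apart. The gene models behind the RPKM were 7834 bases long for Hoxa3 and 8699 bases for Hoxb3, longer than any transcript of these genes in that annotation. Of 15 noncoding RNAs of the clusters that were looked for, 11 had values, among them Hotairm1, Hottip and Hoxaas2. These were at 0 in all libraries. For those that share exons with a HOX gene a 0 does not show absence.

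RefSeq promoter windows of GRCm38.p6 were at hand for 7 of the 10 genes. The 250 bases before the start are shown for Hoxa9 and Hoxb4, the most abundant gene of each cluster, and for Hoxa5, which lay higher in the G0M+ library of every pair of libraries with neighbouring numbers. So did Hoxa10, Hoxb3 and Hoxb4. Capitals mark the letters CCAAT or their complement, the box bound by NF-Y. The windows are chr6:52227371-52227620 (minus strand), chr11:96318017-96318266 (plus) and chr6:52204588-52204837 (minus), and none overlaps an exon of GENCODE M21.
Hoxa9: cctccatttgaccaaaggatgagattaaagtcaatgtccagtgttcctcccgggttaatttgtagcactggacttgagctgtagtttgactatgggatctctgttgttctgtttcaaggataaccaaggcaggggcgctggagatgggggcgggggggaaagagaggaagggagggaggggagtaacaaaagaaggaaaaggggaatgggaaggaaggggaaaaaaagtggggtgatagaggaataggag
Hoxb4: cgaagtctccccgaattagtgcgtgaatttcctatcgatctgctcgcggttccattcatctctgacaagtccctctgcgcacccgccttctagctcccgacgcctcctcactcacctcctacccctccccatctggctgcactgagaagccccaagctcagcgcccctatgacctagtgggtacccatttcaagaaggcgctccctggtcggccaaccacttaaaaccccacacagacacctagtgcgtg
Hoxa5: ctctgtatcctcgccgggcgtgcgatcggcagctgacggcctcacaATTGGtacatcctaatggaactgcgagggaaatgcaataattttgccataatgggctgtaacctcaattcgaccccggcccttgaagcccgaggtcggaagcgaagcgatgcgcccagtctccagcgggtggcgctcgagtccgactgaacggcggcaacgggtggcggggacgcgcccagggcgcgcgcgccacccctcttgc
The Hoxa5 window held 28 CpG dinucleotides, the Hoxb4 window 14 and the Hoxa9 window 3, beside a median of 6 over all 32851 windows of the same length. CCAAT, searched on both strands, was found in windows of Hoxa5, Hoxa6 and Hoxa10, and in 33.8% of all windows. The PBX-HOX composite TGATNNAT was in none of the 8 windows of these genes (7.68% of all), and the MEIS and PKNOX core TGACAG was in that of Hoxa3 only (15.9% of all).

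The first comparison asks how the HOX genes of residual cells under imatinib compare with those of vehicle-treated mice. Hoxa3, Hoxb3 and Hoxb4, anterior and central genes of the clusters, lay higher in every imatinib library than in every vehicle library of the same population, in G0M+ and in G0M- cells alike. Among the 16776 genes detected, 1.23% did so. Averaged over both populations they were 1.18 (Hoxa3), 1.19 (Hoxb3) and 0.96 (Hoxb4) higher on the log2(RPKM + 0.1) scale, and none passed an adjusted p of 0.05. Imatinib libraries carry numbers 1 to 6 and vehicle libraries 7 to 12, so the treatment and whatever goes with the library number cannot be told apart. Libraries with neighbouring numbers deviated together from their group means (correlations of 0.429 to 0.655, given with the population comparison) and share a treatment, so p-values over 6 against 6 libraries treat them as more independent than they are. With both libraries of each pair averaged, an alternative chosen after seeing the data, 3 imatinib pairs stood against 3 vehicle pairs. There the exact permutation p of all 3 genes was 0.1, the smallest that 3 against 3 can give, and the limma adjusted p was 0.479 (Hoxa3), 0.482 (Hoxb3) and 0.552 (Hoxb4).

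Hoxa3 is a 3′ gene of the HOXA cluster. Its level was 0.163, 0.179 and 0.587 RPKM in DP cells and 0.781, 1.02 and 0.912 RPKM in IMDP cells. It was 0.155, 0.203 and 0.152 RPKM in SP and 0.487, 0.494 and 0.284 RPKM in IMSP cells. The groups did not overlap in either population, and DP3 was the one vehicle library above all IMSP libraries. The difference was 1.44 ± 0.40 (SE) in G0M+ and 0.93 ± 0.40 in G0M- cells. In the fit of all genes above 0, limma gave an adjusted p of 0.0948 for the average of both, and the exact permutation test of 6 against 6 libraries gave p = 0.00866 (two-sided). As single libraries were left out the adjusted p ran from 0.0343 (without DP3, the one fit in which it passed) to 0.217 (without DP2), and the difference from 1.06 to 1.40.

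Hoxb3, its paralogue in the HOXB cluster, showed the same order at a lower level. It measured 0.0294, 0.140 and 0.233 RPKM in DP and 0.374, 0.657 and 0.387 RPKM in IMDP cells. In SP cells it was at 0.117, 0.0136 and 0.0256 RPKM and in IMSP cells at 0.144, 0.324 and 0.153 RPKM. The SP values rest on 21, 2 and 3 reads and the IMSP values on 22, 32 and 18. SP1, the deepest library (20.6 M reads), thus held more Hoxb3 reads than IMSP3. The DP values rest on 4, 19 and 30 reads and the IMDP values on 42, 85 and 57. In RPKM every imatinib library was again above every vehicle library of its population. The differences were 1.36 ± 0.41 and 1.03 ± 0.41 (SE), and their average had an adjusted p of 0.105 by limma and an exact permutation p of 0.0108.

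Hoxb4 read 0.547, 0.498 and 0.948 RPKM in DP and 1.33, 1.96 and 0.966 RPKM in IMDP cells. Its values were 0.796, 0.459 and 0.347 RPKM in SP and 1.04, 1.37 and 0.838 RPKM in IMSP cells. The gap between the groups was narrow, with DP3 just under IMDP3 and SP1 just under IMSP3. Hoxb4 was higher by 0.98 ± 0.38 in G0M+ and 0.94 ± 0.38 (SE) in G0M- cells. The average difference of 0.96 had an adjusted p of 0.140 (limma) among all genes above 0 and an exact permutation p of 0.00433. Hoxb4 and Hoxa9 were the only members that reached 1 RPKM in at least 3 libraries, and Hoxb4 did so through 4 imatinib libraries alone. Among the 10072 genes that met this limit, limma gave an adjusted p of 0.282 for Hoxa9. The limma value of Hoxb4 there (adjusted p = 0.108) is not read, as imatinib libraries alone brought it over the limit.

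**Figure D2:**
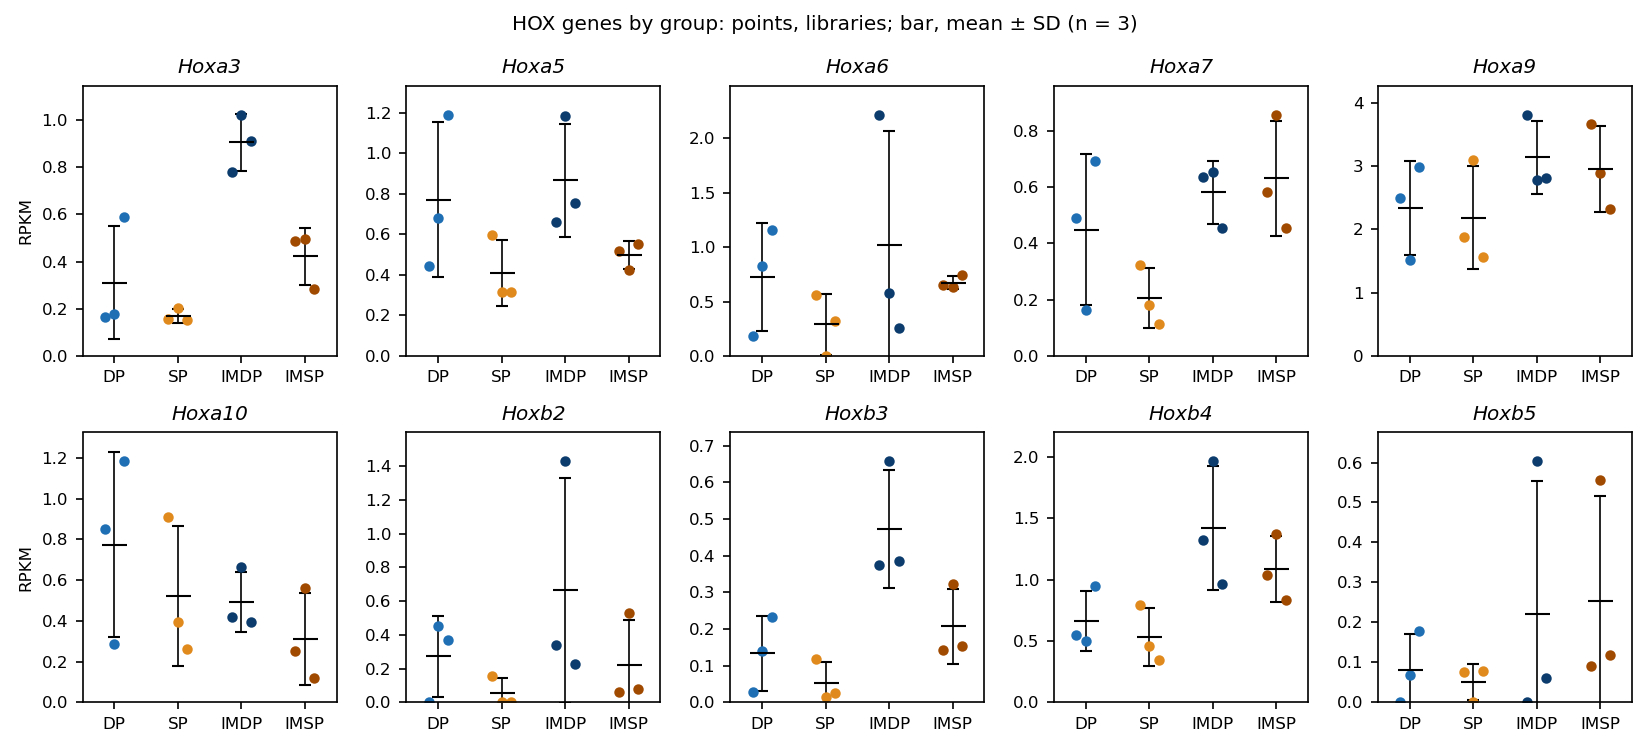
RPKM of the 10 HOX genes in each library (points) of DP, SP, IMDP and IMSP, with the mean and SD of 3 libraries as black bars that stop at the axis. Each panel has its own linear scale from 0. For Hoxa3, Hoxb3 and Hoxb4 all IMDP points lie above all DP points and all IMSP points above all SP points.

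The central and posterior HOXA genes did not follow one pattern. Hoxa9, the HOX gene most often raised in acute myeloid leukaemia, read 2.49, 1.52 and 2.99 RPKM in DP, 1.88, 3.10 and 1.56 in SP, 3.81, 2.79 and 2.82 in IMDP and 3.67, 2.89 and 2.32 in IMSP cells. Its groups overlapped in every comparison, and the difference with imatinib was 0.45 ± 0.22 (SE). Hoxa10, its neighbour and another leukaemia-associated HOXA gene, was the member with the opposite sign. It stood at 0.853, 0.285 and 1.18 RPKM in DP, 0.913, 0.394 and 0.260 in SP, 0.419, 0.663 and 0.395 in IMDP and 0.254, 0.560 and 0.118 in IMSP cells, a difference of -0.51 ± 0.40 (SE), with overlapping groups. Hoxa5 was at 0.442, 0.681 and 1.19 RPKM in DP, 0.596, 0.314 and 0.317 in SP, 0.660, 1.18 and 0.755 in IMDP and 0.515, 0.422 and 0.553 in IMSP cells. With imatinib it differed by 0.24 ± 0.27, inside its error. As single libraries were left out, the difference of Hoxa5 ran from 0.088 to 0.40 and that of Hoxa10 from -0.77 to -0.30.

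Hoxa7 was at 0.324, 0.181 and 0.114 RPKM in SP cells and at 0.583, 0.856 and 0.456 RPKM in IMSP cells. These groups did not overlap, with a difference of 1.28 ± 0.45 (SE), while DP (0.491, 0.164 and 0.693 RPKM) and IMDP (0.634, 0.654 and 0.454 RPKM) did. Hoxa6, the shortest gene model of the set at 699 bases, was at 0.556, 0 and 0.319 RPKM in SP and at 0.651, 0.629 and 0.743 RPKM in IMSP cells. Its DP values were 0.183, 0.823 and 1.16 RPKM and its IMDP values 2.21, 0.577 and 0.253 RPKM. The IMDP values spanned the widest range of any group of these genes and came from 20, 6 and 3 reads. Hoxb5 also had no overlap between SP (0.0769, 0 and 0.0783 RPKM) and IMSP cells (0.0900, 0.557 and 0.117 RPKM), on 0 to 12 reads per library.

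In all, 6 of the 10 genes were higher without overlap in IMSP than in SP cells, where 8.35% of all genes above 0 were. In IMDP against DP cells the count was 3 of 10, beside 4.96% of all genes. None was lower without overlap in either comparison. Of the 6 genes higher in IMSP cells, only Hoxa3 was also free of overlap in reads not scaled to depth (16 to 27 in SP, 30 to 67 in IMSP). Hoxa6 had 8, 0 and 3 reads in SP and 8, 5 and 7 in IMSP cells, and Hoxb5 had 3, 0 and 2 beside 3, 12 and 3. SP1 was the deepest library, at 20.6 M reads. On average over both populations 9 of 10 genes had a positive difference, as did 47.2% of all genes, and the median difference was 0.83 beside -0.017 over all genes. With 1 added to the RPKM in place of 0.1 the median of the 10 was 0.28, and with 0.01 added it was 1.23. An adjusted p under 0.05 was reached by 0 of 10 genes and by 0.274% of all genes (limma), and by none of all genes (0 of 16776, 1418 at an unadjusted p under 0.05) with pairs averaged. Taken separately, 0 of 10 passed in G0M+ cells, as did 0.197% of all genes, and 0 of 10 in G0M- cells, where no gene passed (0%) and 1195 genes, 7.12%, had an unadjusted p under 0.05. At an unadjusted p under 0.05 there were 4 of 10 (Hoxa3, Hoxa7, Hoxb3 and Hoxb4), against 14.4% of all genes.

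**Figure D3:**
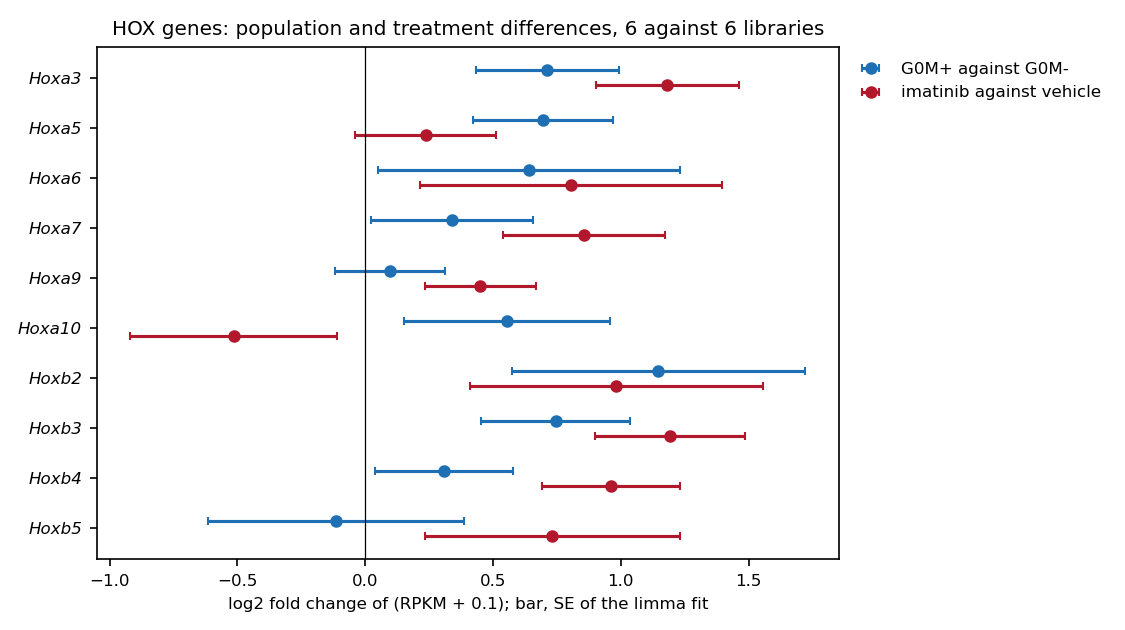
Difference of each HOX gene on the log2(RPKM + 0.1) scale between G0M+ and G0M- libraries (blue) and between imatinib and vehicle libraries (red), 6 against 6, with the SE of the limma fit as bars. Hoxa3, Hoxb3 and Hoxb4 lie near 1 for imatinib, Hoxa10 lies at -0.51, and the population differences run from -0.11 for Hoxb5 to 1.15 for Hoxb2.

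The second comparison asks whether quiescent-marked G0M+ cells differ from G0M- cells. HOX genes lay mostly on the G0M+ side, and none passed the threshold when libraries were compared as independent samples. In DP against SP cells all 10 genes had a positive difference (52.4% of all genes), with a median of 0.52 beside 0.02. Without DP3 the count was 8 of 10 and the median 0.19, and without SP1 the median was 0.87. With 1 added to the RPKM in place of 0.1 the median was 0.18, and with 0.01 added it was 0.72. None was free of overlap (8.86% of all genes were higher without overlap) and 0 of 10 had an adjusted p under 0.05, against 1.2% of all genes. The differences were largest for Hoxa6 (1.19 ± 0.83, SE), Hoxb2 (1.11 ± 0.81), Hoxa7 (0.76 ± 0.45) and Hoxa5 (0.73 ± 0.39). As single libraries were left out they ran from 0.40 (without SP2) to 1.84 (without DP1) for Hoxa6, from 0.66 (DP2) to 1.89 (DP1) for Hoxb2, from 0.42 (DP3) to 1.22 (DP2) for Hoxa7 and from 0.40 (DP3) to 1.02 (DP1) for Hoxa5. In IMDP against IMSP cells Hoxa3, Hoxa5 and Hoxb3 were higher without overlap, 3 of 10 beside 6.78% of all genes, and 0 of 10 had an adjusted p under 0.05 beside 12.8% of all genes. In this comparison 8 of 10 genes had a positive difference, beside 42.7% of all genes, a count that ran from 7 (without IMDP1 or IMSP3) to 10 (without IMSP2). There the differences were 0.97 ± 0.40 for Hoxa3, 0.66 ± 0.39 for Hoxa5 and 0.91 ± 0.41 for Hoxb3.

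Averaged over both treatments the differences were 0.71 ± 0.28 (Hoxa3), 0.70 ± 0.27 (Hoxa5), 0.64 ± 0.59 (Hoxa6), 0.34 ± 0.32 (Hoxa7), 0.10 ± 0.22 (Hoxa9) and 0.56 ± 0.40 (Hoxa10) in the HOXA cluster. In the HOXB cluster they were 1.15 ± 0.57 (Hoxb2), 0.75 ± 0.29 (Hoxb3), 0.31 ± 0.27 (Hoxb4) and -0.11 ± 0.50 (Hoxb5). With single libraries left out, Hoxa6 ran from 0.24 to 0.96, Hoxa7 from 0.17 to 0.57, Hoxa9 from -0.0037 to 0.23, Hoxa10 from 0.36 to 0.81, Hoxb4 from 0.18 to 0.45 and Hoxb5 from -0.53 to 0.18. As reported, 9 of 10 were positive (all 10 after scaling the libraries to one median, where Hoxb5 turned to 0.042), where 48.7% of all genes were, and 0 of 10 passed, where 13.8% of all genes did. At an unadjusted p under 0.05 the count was 3 of 10 beside 29.4% of all genes, a share near that of all genes. The smallest adjusted p values were 0.114 for Hoxa3 and Hoxb3 and 0.117 for Hoxa5 (limma), and the exact permutation test gave 0.0173 for Hoxa5, 0.128 for Hoxa3 and 0.136 for Hoxb3.

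Libraries with neighbouring numbers, each a G0M+ and a G0M- library of the same treatment, deviated together from their group means, with correlations of 0.429 to 0.655 across tested genes in the 6 pairs. Compared within these pairs, Hoxa5, Hoxa10, Hoxb3 and Hoxb4 were higher in the G0M+ library in 6 of 6 pairs, as were 9.51% of all genes above 0. Hoxb2, which with Hoxb3 lies towards the 3′ end of its cluster, was higher in 5 pairs and at 0 in both libraries of the other one. Hoxa3 was higher in 5 of 6 pairs, and Hoxa9 in 3 of 6. With the pairs as a block in limma, 3 of 10 genes rose in G0M+ cells at an adjusted p under 0.05, beside 9.37% of all genes that rose in this fit. These were Hoxb3 (0.75 ± 0.17, adjusted p = 0.0178), Hoxb2 (1.15 ± 0.32, adjusted p = 0.0326) and Hoxa5 (0.70 ± 0.22, adjusted p = 0.0487). In imatinib cells alone Hoxb3 rose by 0.91 ± 0.24 (adjusted p = 0.0322), 1 of 10 beside 5.42% of all genes, and in vehicle cells 0 of 10 passed, beside 1.07% of all genes that rose there.

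**Figure D4:**
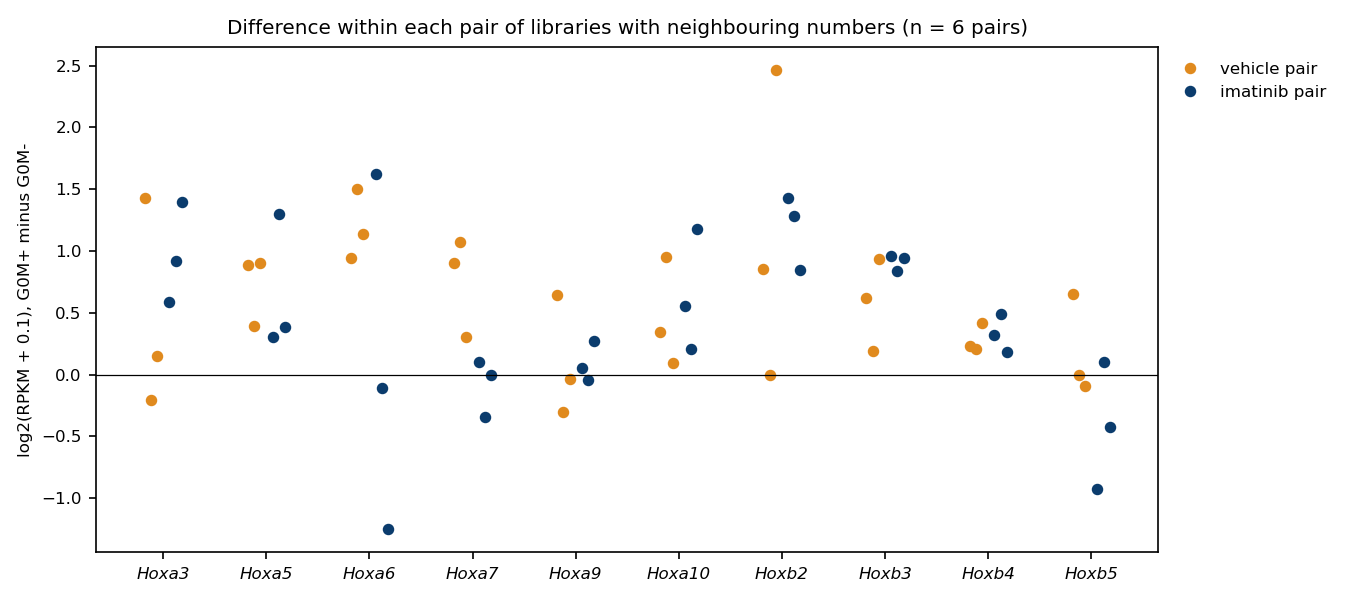
Difference of log2(RPKM + 0.1) between the G0M+ and the G0M- library of each pair with neighbouring numbers, 3 vehicle pairs (orange) and 3 imatinib pairs (dark blue) per gene. All 6 points lie above 0 for Hoxa5, Hoxa10, Hoxb3 and Hoxb4, and Hoxa9 scatters around 0.

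Whether the population difference depended on treatment was tested as an interaction. None of the 10 genes passed an adjusted p of 0.05 and none an unadjusted p of 0.05 in limma, and across all genes above 0 the counts were 0 (0%) and 1203 (7.17%). The members' interactions lay between -1.11 (Hoxa6) and 0.51 (Hoxa3).

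One pair of libraries stood out in the HOXB cluster. IMDP2 and IMSP2, numbers of one neighbouring pair, had summed HOXB levels of 5.31 and 3.30 RPKM, and all other libraries lay between 0.451 and 2.24 RPKM. Hoxb2 was at 1.43 RPKM in IMDP2 and 0.527 in IMSP2, and at 0, 0.452 and 0.368 RPKM in DP, 0.159, 0 and 0 in SP, 0.337 and 0.225 in the other IMDP and 0.0620 and 0.0807 RPKM in the other IMSP libraries. Hoxb5 was at 0.603 and 0.557 RPKM in that pair and at most 0.178 RPKM elsewhere. After group means were removed, the 6 pairs of HOXB genes correlated with a median Pearson r of 0.79 over the 12 libraries and the 15 pairs of HOXA genes with 0.44, a description to which this pair of libraries contributes. The difference of Hoxb5 with imatinib ran from 0.32 to 1.03 as single libraries were left out.

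The genes whose levels ran most like the mean of Hoxa9 and Hoxb4, the 2 members that reached the limit of 1 RPKM, were Fam208a (r = 0.927), Cpq (r = 0.914), Eml5 (r = 0.913), Zfp950 (r = 0.912) and Hlf (r = 0.910). These are Pearson correlations over 12 libraries that share groups and neighbouring pairs, and are given as a description. Fam208a encodes a subunit of the HUSH silencing complex, and Hlf encodes a transcription factor of blood stem cells. Hlf was at 2.57, 1.11 and 6.53 RPKM in DP, 4.10, 1.88 and 1.01 in SP, 10.4, 11.0 and 9.95 in IMDP and 4.85, 7.01 and 3.60 in IMSP cells. Its IMDP libraries were thus all above its DP libraries, and IMSP3 fell below SP1.

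HOX proteins bind DNA with cofactors of the MEIS, PBX and PKNOX families. Of 9 cofactor genes 6 were tested, and 1 fell and 0 rose in G0M+ cells. Meis1, the classical partner of HOXA9, was the most abundant at 10.3 ± 3.74 RPKM (SD, n = 12), with 7.38, 10.3 and 13.5 RPKM in DP, 8.65, 4.32 and 9.63 in SP, 13.8, 15.3 and 14.7 in IMDP and 7.31, 12.9 and 5.44 in IMSP cells. All IMDP libraries lay above all IMSP libraries, and the G0M+ difference of 0.68 ± 0.24 (SE) had an adjusted p of 0.0573. With the neighbouring pairs as a block 2 of the 6 rose and 1 fell, where 46.9% of all tested genes passed, and Meis1 was among those that rose (adjusted p = 0.00522). In IMDP against IMSP cells that fit called Meis1 higher, by 0.86 (adjusted p = 0.00937), and Pknox1 lower, where 44.1% of genes passed. Pknox1, the cofactor that binds PBX as MEIS does, was at 3.17, 3.50 and 3.85 RPKM in DP and 6.85, 6.51 and 5.48 in SP cells. It was at 3.35, 2.73 and 4.58 RPKM in IMDP and 7.42, 6.61 and 6.00 in IMSP cells. All G0M+ libraries were below all G0M- libraries, and Pknox1 fell by 0.87 on the log2 scale (adjusted p = 0.000982, where 26.3% of the 10072 genes passed). In DP against SP alone Pknox1 differed by -0.82 with a limma adjusted p of 0.0407 (2.26% of genes passed), which was 0.0702 with the replicate numbers as a block, 0.0228 with the neighbouring pairs as a block, and up to 0.165 when single libraries were left out.

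**Figure D5:**
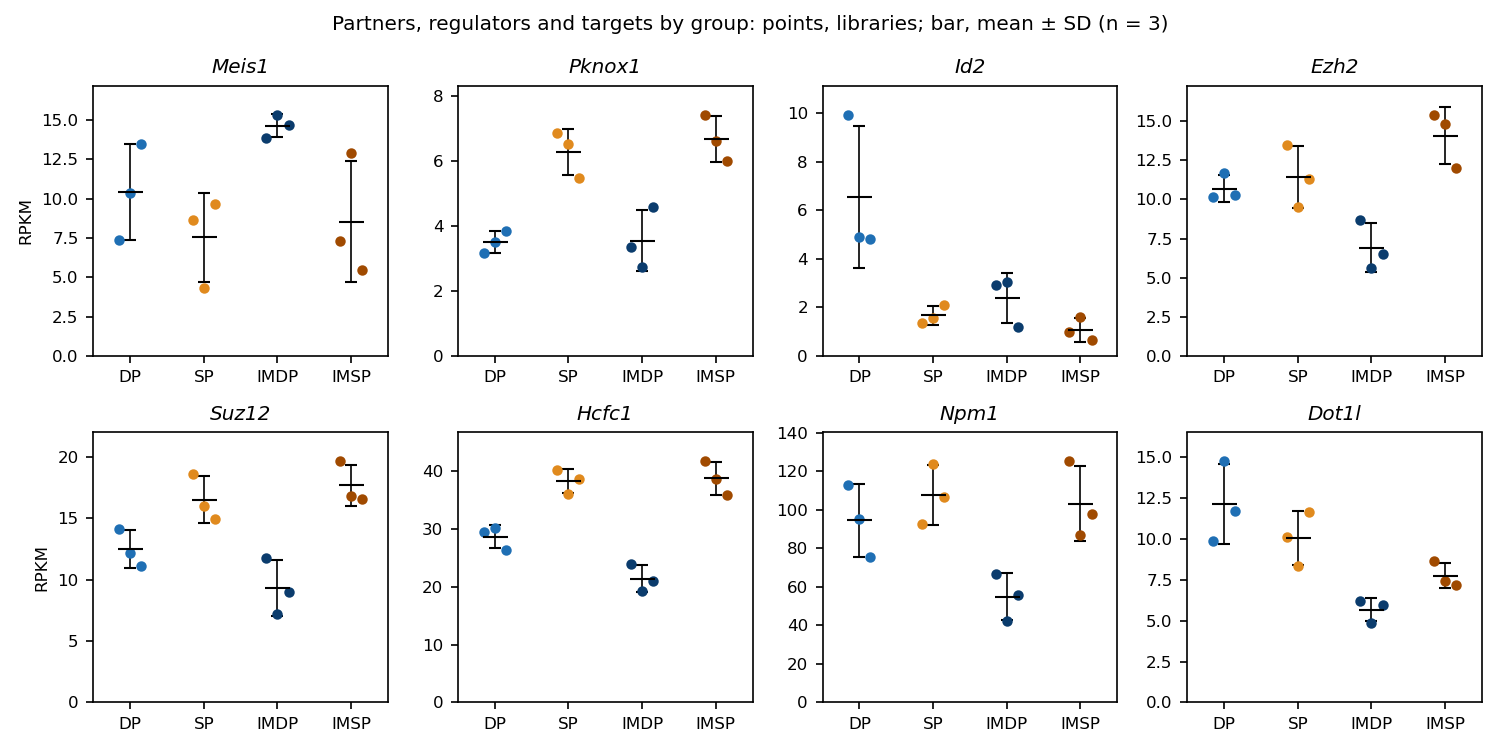
RPKM in each library (points) of 8 genes that work with or on HOX genes, with the mean and SD of 3 libraries as black bars, each panel on its own linear scale from 0. Pknox1 is lower and Meis1 mostly higher in DP and IMDP than in SP and IMSP, Ezh2, Suz12, Hcfc1 and Npm1 are lowest in IMDP, and Dot1l is lowest in IMDP and highest in DP.

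HOX chromatin is held open by MLL complexes and closed by Polycomb complexes. Of 22 genes of MLL complexes and other HOX activators 19 were tested. In G0M+ cells 8 fell and 1 (Aff4) rose, where 26.3% of tested genes passed. In IMDP against IMSP cells 9 fell and 0 rose, where 25.6% passed. In DP against SP cells 0 of the 19 passed, where 2.26% of tested genes did. With the neighbouring pairs as a block 11 fell and 3 rose in G0M+ cells, where 46.9% of all tested genes passed. In IMDP against IMSP cells 12 fell and 2 rose with that block, where 44.1% passed. Hcfc1, a scaffold of MLL complexes, fell by 0.64 (adjusted p = 0.000438) from 36.1 to 40.2 RPKM in SP and 35.9 to 41.7 in IMSP cells to 26.4 to 30.2 in DP and 19.2 to 24.0 RPKM in IMDP cells. Nup98 (nucleoporin) fell by 0.54, Dpy30 (MLL core subunit) by 0.60 and Npm1 (nucleophosmin) by 0.56, all averaged over treatments. Wdr5, another core subunit, fell by 0.36 (adjusted p = 0.0368). The median of all tested genes was itself -0.13 in this comparison, -0.25 in IMDP against IMSP and -0.17 in IMDP against DP cells. After scaling the libraries to one median, 4 of the 19 fell and 3 rose in G0M+ cells, and 4 fell and 2 rose in IMDP against IMSP cells. In these fits 2379 and 1587 of all 10072 tested genes passed. Dot1l, the H3K79 methyltransferase recruited by MLL fusions, was the listed activator that fell with imatinib, by 0.72 (adjusted p = 0.034, beside 0.854% of genes passing; in IMDP against DP 0.367% passed), from 8.36 to 14.7 RPKM in vehicle to 4.87 to 8.65 RPKM in imatinib libraries, ranges that overlap. That call was lost in 6 of 12 fits without a single library (adjusted p up to 0.0975), with the replicate numbers as a block (0.0523) and with both libraries of each neighbouring pair averaged (0.377).

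Of 12 Polycomb genes 11 were tested. In G0M+ cells 4 fell and 0 rose, where 26.3% of all tested genes passed, namely Ezh2, the H3K27 methyltransferase (-0.56 ± 0.13, SE), its partners Suz12 (-0.67 ± 0.13) and Eed (-0.41 ± 0.13), and Asxl1 (-0.43 ± 0.10), which takes part in removing H2A ubiquitin. The call of Eed in G0M+ cells was lost in 8 of 12 fits without a single library (adjusted p up to 0.0855). The same 4 fell in IMDP against IMSP cells, where 25.6% of genes passed, by 1.03, 0.94, 0.70 and 0.54. There Eed was lost without IMDP2, IMDP3 or IMSP1 (adjusted p up to 0.0778) and Asxl1 without IMDP2 or IMSP1 (up to 0.081), and none passed in DP against SP cells, and the interaction test, in which no gene passed, did not separate the comparisons. After scaling to one median 2 fell and 2 rose in G0M+ cells, where 2379 of all 10072 tested genes passed, and Eed and Asxl1 no longer passed. With the neighbouring pairs as a block 4 fell and 1 rose in G0M+ cells, where 46.9% of all tested genes passed. In IMDP against IMSP cells 4 fell and 0 rose with that block, where 44.1% passed. Ezh2 was at 5.60 to 8.68 RPKM in IMDP and 12.0 to 15.4 RPKM in IMSP cells, without overlap.

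Among 16 target genes of HOXA9 and MEIS1, 14 were tested, and in G0M+ cells 1 rose and 0 fell, where 26.3% of all tested genes passed. Id2, an inhibitor of E-protein transcription factors, rose by 1.46 ± 0.29 (SE, adjusted p = 0.00497). It was at 9.94, 4.92 and 4.84 RPKM in DP, 1.34, 1.58 and 2.10 in SP, 2.92, 3.07 and 1.21 in IMDP and 0.984, 1.59 and 0.641 in IMSP cells, so DP libraries were above all others. The median difference of the 14 was 0.25 beside -0.13 over all genes, and with the neighbouring pairs as a block 5 rose and 0 fell, where 13.4% of all tested genes rose. The most abundant targets, Cdk6 at 92.1 ± 16.3, Lmo2 at 53.0 ± 20.7 and Pim1 at 51.0 ± 15.5 RPKM (SD, n = 12), did not pass in any comparison without that block. With it Cdk6 fell by 0.31 in IMDP against IMSP cells (adjusted p = 0.0463). With imatinib 0 of 14 passed, beside 0.854% of all tested genes.

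Other features of the cells moved with the same groups. Proliferation genes summed to 82.3 to 173 RPKM in G0M+ and 252 to 327 RPKM in G0M- libraries, with Mki67, Top2a, Cdk1 and Ccnb1 falling by 2.38 to 3.53 and Pcna and Mcm2 not passing. In IMDP against IMSP cells Pcna passed as well, so that 5 of 6 genes fell, where 25.6% of all tested genes passed. The same 5 of 6 fell in G0M+ cells with the neighbouring pairs as a block, where 46.9% passed. Ly6a, a marker of the sort, rose by 1.42 in G0M+ cells, and Kit, which passed with that block, and Cd27 did not. The 6 mast and basophil markers summed to 62.4 to 268 RPKM in DP, 13.1 to 156 in IMDP and 5.59 to 18.6 RPKM in SP and IMSP libraries. Among them Mcpt8 rose, and Cpa3 did not pass. Fcer1a passed in the fit as reported, and not in limma-voom on recovered reads (adjusted p = 0.247). Prss34, Cma1 and Ms4a2, the macrophage gene C1qc and the megakaryocyte marker Ppbp reached the limit of 1 RPKM in G0M+ libraries alone, so that no rise is read from their calls. C1qa, C1qb and C1qc were at 0 in all SP and IMSP libraries, and the macrophage markers summed to at most 10.3 RPKM. Of these Vcam1 and Adgre1 passed, and neither did in limma-voom on recovered reads (adjusted p = 0.0559 and 0.0811). The globin Hbb-bt rose, with an adjusted p of 0.0523 without IMSP1, while Pf4, Itga2b, Hbb-bs and Hba-a1 did not pass. With the neighbouring pairs as a block 3 of 4 tested erythroid markers (Hbb-bs and Hba-a1 among them) and 4 of 6 megakaryocyte markers rose in G0M+ cells. So did 6 of 6 mast and basophil markers, and 13.4% of all tested genes. These counts include genes that reached the limit in G0M+ libraries alone. The erythroid markers summed to 197 to 263 RPKM in DP, 53.3 to 145 in SP, 56.8 to 377 in IMDP and 9.43 to 71.6 RPKM in IMSP libraries, and the megakaryocyte markers to 28.1 to 124, 12.1 to 41.3, 19.8 to 95.7 and 7.83 to 42.2 RPKM. Of 6 neutrophil and monocyte markers tested Mpo and Prtn3 fell and Elane did not pass, and sums over the list ranged from 54.5 to 1237 RPKM in G0M+ and 328 to 2280 RPKM in G0M- libraries. Those calls were lost without a single library in 7 (Mpo) and 9 (Prtn3) of 12 fits, with adjusted p up to 0.0765 and 0.101. With the neighbouring pairs as a block 5 of the 6 fell, where 46.9% of all tested genes passed. Lymphoid markers, led by Il7r, Cd3e and Cd79a, summed to at most 1.64 RPKM in any library and none was high enough to be tested. With imatinib no gene of these lists passed. In bulk RNA of sorted cells, fewer cells of a type and less RNA per cell cannot be told apart, and the part of these features in the HOX differences was not tested.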

How the data were processed

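RNA of 12 libraries of 100 sorted cells was reverse transcribed with not-so-random primers and made into unstranded Nextera XT libraries. The authors mapped reads to GRCm38/mm10 (CLC Genomics Workbench per the methods, while the reporting summary names HISAT2 and featureCounts; edgeR per the submitters' notes) and deposited RPKM per feature and library. Numbered copies of a gene were summed. Whole reads were recovered for all 17735 features above 0 (within 0.005 reads), of which 25.8% to 37.0% of each total fell on listed features. Reads include PCR copies, and their number covers counting error only.

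Differences were tested with limma 3.58.1 (R 4.3.3) on log2(RPKM + 0.1) with 4 group means, an eBayes trend and Benjamini-Hochberg adjustment at 0.05, over the 10072 genes that reached 1 RPKM in 3 libraries or more, and over all 16776 genes above 0 for HOX genes under that limit. Fold changes of low genes are understated on this scale. The fit was tested on simulated data. Exact two-sided permutation tests compared 6 with 6 libraries for single genes (20 comparisons, unadjusted, smallest possible p 0.00216). Replicate numbers of the titles did not pair DP with SP libraries (correlations -0.298 to -0.0976). Neighbouring library numbers of the sample descriptions did in every pair, and were used as a block. Alternatives changed the pseudocount, filter, scaling, block, groups fitted, copies, library left out, and unit (limma-voom on recovered reads), and averaged neighbouring pairs for imatinib (added after seeing the data). The HOX genes, the other lists and the tests were chosen with earlier results of these data known. Of each other list, up to 4 genes past the threshold and the 3 with the highest mean were named, and 5 genes by likeness (Pearson r). Dot1l, Aff4, Ms4a2 and the pair IMDP2 and IMSP2 were singled out after their values were seen. Positions came from GENCODE M21 and promoters from RefSeq. Some genes of the lists are not reported here.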

Additional observations from a re-analysis of the deposited data

How the results depend on the processing

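No HOX gene passed the threshold in the comparison as reported. Exceptions arose in 3 comparisons. With a pseudocount of 1, 1 gene (Hoxa3) passed in G0M+ against G0M- and 1 (Hoxa3) in IMDP against IMSP. With neighbouring library numbers as a block the counts were 3 and 1. With the reads on listed features as denominator in limma-voom, an alternative chosen after seeing the data, 1 gene (Hoxa3) passed in IMDP against IMSP and 1 (Hoxa3) with imatinib. Leaving out single libraries gave 0 to 1 genes in G0M+ against G0M- (1, Hoxb3, without DP1) and 0 to 1 with imatinib (1, Hoxa3, without DP3), and 0 in the other comparisons. The replicate block from the title numbers gave 0 genes in every comparison, and the pairing by those numbers did not hold between DP and SP. Directions turned for Hoxa9 in G0M+ against G0M- (-0.0037 to 0.23 when libraries were left out) and for Hoxb5 (0.042 after scaling to the median, -0.53 to 0.18 when libraries were left out). The number of positive HOX differences out of 10 ran, over all alternatives, from 8 to 10 in DP against SP, 7 to 10 in IMDP against IMSP, 8 to 10 in G0M+ against G0M- and 7 to 9 in IMDP against DP, and was 9 throughout for IMSP against SP and for imatinib. Over all 10072 genes, scaling to one median moved the calls in G0M+ against G0M- from 536 higher and 2112 lower to 1131 and 1248, and in IMDP against IMSP from 239 and 2342 to 647 and 940. Calls ranged from 125 to 980 for DP against SP (228 as reported), from 902 to 4446 for IMDP against IMSP (2581), from 1583 to 4721 for G0M+ against G0M- (2648), from 0 to 189 for IMDP against DP (37) and from 0 (neighbouring pairs averaged, an alternative chosen after seeing the data) to 166 for imatinib (86), with 0 throughout for IMSP against SP. Their cause was not tested. HOX genes other than Hoxa9 rest on 0 to 121 reads per library, which limits what can be told apart.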

Other observations

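Further HOX genes were at their highest in IMDP2 and IMSP2, the pair that stood out in the HOXB cluster. Hoxb8 was at 0.205 RPKM in IMDP2 and 0.0895 RPKM in IMSP2 and at 0 in the other 10 libraries. Hoxc6 was at 0.190 RPKM (31 reads) in IMDP2, 0.0240 RPKM (3 reads) in IMSP2, 0.00616 RPKM (1 read) in DP3 and 0 elsewhere. Hoxb6 was at 0.396 and 0.363 RPKM in the pair and at most 0.137 RPKM in the others. The same 2 libraries had the highest levels of Pbx3 (3.56 and 4.58 RPKM, beside at most 3.44) and of Mllt3 (5.54 and 3.41 RPKM, beside at most 2.85). These genes were singled out after their values were seen, and no test was made.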
